A study of Equus caballus with 6 samples.

Results

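The phagocyte NADPH oxidase was examined through its subunit genes CYBB, CYBA, NCF1, NCF4 and RAC2, 5 of the 9155 genes named on the array, in equine lamellar hoof tissue with laminitis and in normal lamellae. All probe sets were taken whose single gene symbol in the platform annotation is one of these 5, which gave 6 of the 24016 besides the controls: 2 for CYBB and 1 for each of the others. Lamellae are the interleaved dermis and epidermis that hold the coffin bone in the hoof, and laminitis is the disease in which they fail. Each array of a bovine GeneChip held the RNA of a right foot, from laminitis numbered 1, 3 and 4 by the titles and from normal tissue numbered 2, 3 and 4, and the labels give no treatment, breed or age. They leave unsaid how laminitis arose and whether each sample is a separate horse. All errors and p-values here therefore cover only the differences among these 6 samples, possibly technical ones, and with 3 arrays a group precision is low.

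The oxidase is the enzyme with which neutrophils, monocytes and macrophages make superoxide in the respiratory burst. Its membrane part is a flavocytochrome of CYBB, the catalytic subunit also called NOX2, and CYBA, which stabilises it. In resting phagocytes the organiser NCF1 and the adaptor NCF4 wait in the cytosol. On stimulation they move to the membrane together with a Rac GTPase, which in neutrophils is mainly RAC2. Transcript levels do not show whether the enzyme was assembled or active.

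Laminitis replicate 1 stood apart in some of its control probes. The ratios of 3' to 5' actin probes, a sign of RNA integrity, were 6.62, 4.71 and 4.78 in laminitis replicates 1, 3 and 4, against 6.25, 2.08 and 4.24 in normal replicates 2, 3 and 4, with overlapping groups. The same ratio for GAPDH was 9.70, 4.06 and 4.74 in laminitis replicates 1, 3 and 4, against 6.87, 5.51 and 6.80 in normal replicates 2, 3 and 4, so that laminitis replicate 1 was the highest. The 5' probe set of dap, a bacterial control transcript, read 341 on laminitis replicate 1 and from 1809 to 2642 on the other arrays, while its 3' probe set read 4391 there and from 3763 to 4837 on the others. Without that array the log2 difference, laminitis minus normal, was 2.25 for the brighter CYBB probe set, -0.50 for RAC2, 0.33 for CYBA, -0.14 for NCF1 and -0.08 for NCF4, and its part in the results was not tested.

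Values are the deposited linear intensities. The bovine probes read horse RNA, and each probe set reads its own transcript with its own strength, so a level is compared between arrays and not between probe sets. The 5 genes were chosen by family, with the laminitis contrast of these arrays already known, and partly selected on the log2 difference of CYBB. Their contrast is therefore given as a description with standard errors and with no test.

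CYBB, the catalytic subunit, was the member that set the groups furthest apart. Its brighter probe set read 233, 265 and 256 in laminitis replicates 1, 3 and 4, against 37.4, 40.8 and 107 in normal replicates 2, 3 and 4. The groups did not overlap, and the laminitis values lay within 1.14-fold of each other while the normal values spanned 2.86-fold. Means were 251 ± 16.3 in laminitis and 61.7 ± 39.3 in normal tissue (SD, n = 3 each). On the log2 scale the difference, laminitis minus normal, was 2.20 ± 0.41 (limma's SE), or 4.59-fold between geometric means.

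Normal replicate 4 was the array that narrowed this gap. Without it the log2 difference of CYBB was 2.68, and without normal replicate 2 it was 1.92, the ends of the range with 1 array left out. The probe set exceeded 79.9%, 83.0% and 81.9% of all probe sets on laminitis replicates 1, 3 and 4, against 28.8%, 29.9% and 54.2% on normal replicates 2, 3 and 4. These ranks do not move with the scaling of an array. Since 2 of the 3 normal values lay below their array's median, where background weighs more, the fold depends on dim readings: with 64 added to every intensity the log2 difference was 1.37 ± 0.22. The probe set passed the brightness filter, above the array's median on at least 3 of 6 arrays, through the 3 laminitis arrays and 1 normal array.

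The other CYBB probe set was below the median on all 6 arrays and was not tested. It read 36.9, 53.5 and 38.7 in laminitis replicates 1, 3 and 4, against 17.4, 76.4 and 15.8 in normal replicates 2, 3 and 4. The groups overlapped, since normal replicate 3 was the highest array and the other normal arrays were the lowest. Its log2 difference was 0.62 ± 0.63 (SE from a fit over all probe sets), or 1.36 without normal replicate 3 and 0.22 without normal replicate 4. The 2 probe sets placed normal replicate 4 differently: it was the highest normal array by the brighter one and the lowest of all 6 arrays by the dimmer one.

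CYBA, which pairs with CYBB in the membrane and also serves other NADPH oxidases outside phagocytes, varied most within laminitis. It read 753, 513 and 289.8 in laminitis replicates 1, 3 and 4, against 330.0, 346 and 253 in normal replicates 2, 3 and 4. Laminitis replicates 1 and 3 lay above all normal arrays, and laminitis replicate 4 lay inside the normal range. Means were 519 ± 232 in laminitis and 309.6 ± 50.0 in normal tissue (SD, n = 3 each), a log2 difference of 0.65 ± 0.36. It was 0.33 without laminitis replicate 1 and 1.02 without laminitis replicate 4, and across the 3 laminitis arrays CYBA spread 2.60-fold where CYBB spread 1.14-fold.

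**Figure D1:**
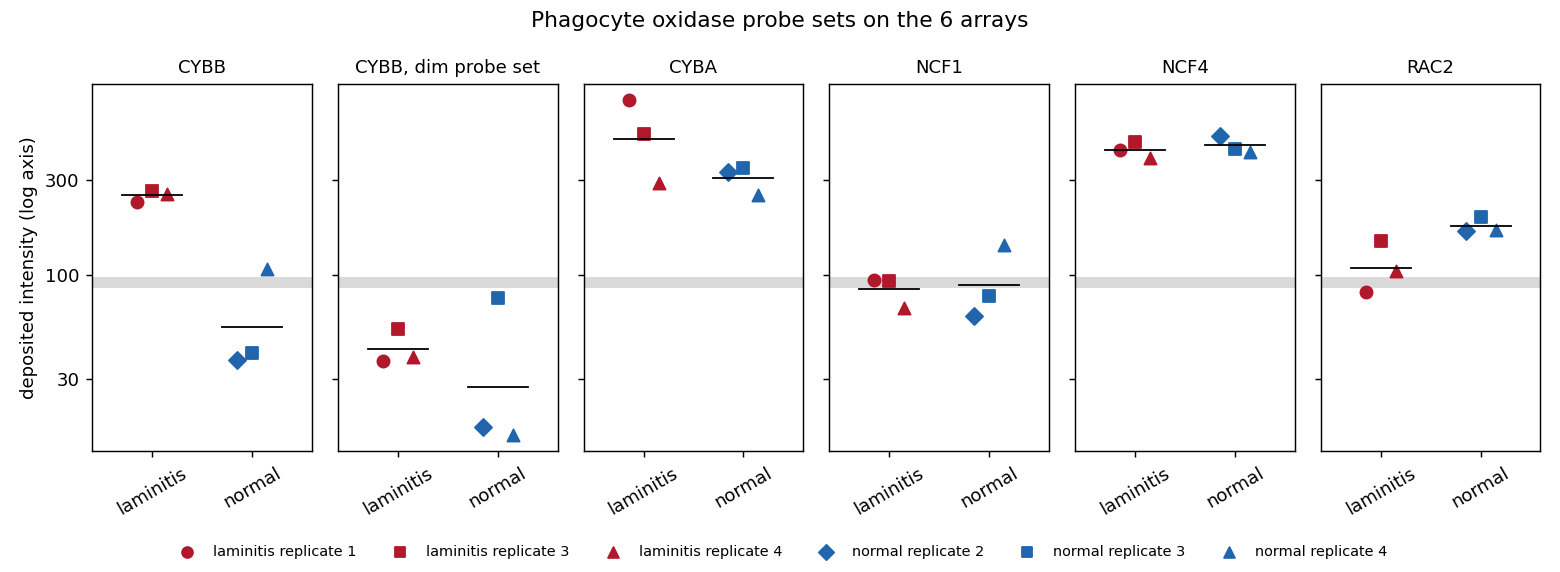
Deposited intensity (log axis) of the 6 oxidase probe sets on each array, with laminitis on the left and normal tissue on the right of each panel; each point is an array, black bars are geometric means, and the grey band spans the medians of the 6 arrays. For CYBB all laminitis points (233 to 265) lie above all normal points (37.4 to 107), for RAC2 all laminitis points (81.9 to 149) lie below all normal points (166 to 196), and for the other probe sets the groups overlap.

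The cytosolic subunits gave differences smaller than their standard errors. NCF1, the organiser that binds CYBA once phosphorylated, read 94.6, 93.8 and 68.7 in laminitis replicates 1, 3 and 4, against 62.6, 78.8 and 141 in normal replicates 2, 3 and 4. The groups overlapped, with normal arrays at both ends. The means were 85.7 ± 14.7 in laminitis and 94.2 ± 41.5 in normal tissue (SD, n = 3 each), a log2 difference of -0.06 ± 0.33. Its sign rests on normal replicate 4, the highest array: without it the difference was 0.27, and it also turned positive after median centring (0.02), quantile normalization (0.02) and cyclic loess (0.04). NCF1 cleared the brightness filter on exactly 3 arrays.

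NCF4, the adaptor that binds a phosphoinositide of the phagosome membrane, was the steadiest member. It read 423, 467 and 385 in laminitis replicates 1, 3 and 4, against 501, 431 and 414 in normal replicates 2, 3 and 4. The groups overlapped, and no array stood apart. Means were 425 ± 41.2 in laminitis and 449 ± 45.8 in normal tissue (SD, n = 3 each), a log2 difference of -0.08 ± 0.19, or 0.00 after median centring.

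RAC2, a Rac GTPase found mainly in blood cells, ran the other way from CYBB. It read 81.9, 149 and 105 in laminitis replicates 1, 3 and 4, against 166, 196 and 168 in normal replicates 2, 3 and 4. The groups did not overlap, by a narrow margin between laminitis replicate 3 and normal replicate 2. Means were 112 ± 33.9 in laminitis and 177 ± 16.8 in normal tissue (SD, n = 3 each), a log2 difference of -0.70 ± 0.26, or 1.62-fold lower in laminitis. It ranged from -0.93 without laminitis replicate 3 to -0.50 without laminitis replicate 1, and was -0.47 with 64 added. In RefSeq's horse gene table NCF4 and RAC2 lie on the same chromosome with 10 protein-coding genes between them.

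Ratios within an array are free of the scaling between arrays and set the member values above against each other, as a description. CYBB was partly selected on its log2 difference, so the ratios that carry it are no further evidence. The log2 ratio of CYBB to RAC2, centred on its mean over the 6 arrays, was 1.75, 1.07 and 1.53 in laminitis replicates 1, 3 and 4, against -1.91, -2.02 and -0.41 in normal replicates 2, 3 and 4. Its group difference of 2.90 was the widest of the 10 pairs of tested members. The groups were also apart for CYBB over NCF1 (difference 2.26) and CYBB over NCF4 (2.28), and for CYBA over RAC2 (1.35) and NCF4 over RAC2 (0.62). How often other pairs of genes were so apart was not computed. CYBB over CYBA, the chains of the flavocytochrome, differed by 1.55 with overlapping groups, from 0.02 to 1.54 in laminitis and from -1.43 to 0.48 in normal tissue. NCF1 over NCF4 differed by 0.01.

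**Figure D2:**
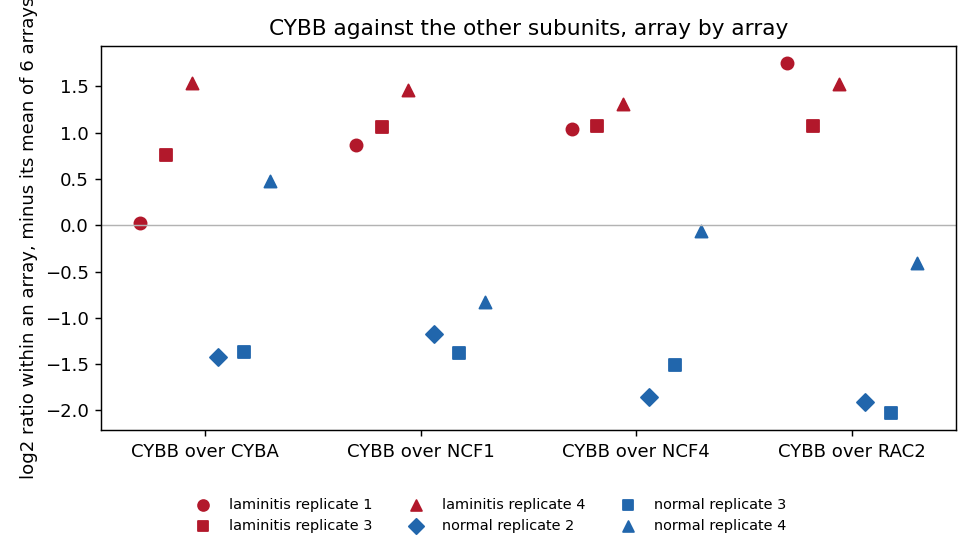
The log2 ratio of CYBB to each other tested subunit within an array, minus its mean over the 6 arrays; red points are laminitis, blue points normal tissue, and shapes mark replicate numbers. Over NCF1, NCF4 and RAC2 all laminitis points lie above all normal points, while over CYBA laminitis replicate 1 (0.02) lies below normal replicate 4 (0.48).

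Of the 6 member probe sets, 5 were bright enough to be among the 12519 tested, with 2 positive and 3 negative log2 differences and a median of -0.06. Over all tested probe sets the median was also -0.06, with 5470 positive and 7049 negative. All laminitis arrays lay above all normal arrays for 1 member probe set, CYBB, where 7.89% of tested probe sets did so, and below them for 1, RAC2, where 8.92% did so. Limma with Benjamini-Hochberg adjustment called 0 of the 12519 tested probe sets higher in laminitis (0%) and 0 lower (0%). At an unadjusted limma p under 0.05 there were 604 higher (4.82%) and 622 lower (4.97%), and an ordinary linear model with no shared variance also called 0.

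The rest of the oxidase pathway was read from 6 lists of 83 genes, of which 45 had a probe set. Among 75 such probe sets 39, of 28 genes, were tested. By limma adjusted over all probe sets 0 passed in either direction, with a smallest adjusted p of 0.295. At an unadjusted limma p under 0.05 there were 5 higher and 3 lower, where 4.82% and 4.97% of all tested probe sets were so. The differences were positive for 14 and negative for 25, with a median of -0.18. All laminitis arrays lay above all normal arrays for 6 of the 39 and below them for 7, where 7.89% and 8.92% of all tested probe sets did so. The 6 include both probe sets of CEBPB.

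Among other NADPH oxidases and partners, NOX4, the constitutively active oxidase of vessels and fibroblasts, was too dim to test by both its probe sets. The brighter of these read 48.6, 29.7 and 39.2 in laminitis replicates 1, 3 and 4, against 109.5, 29.6 and 137 in normal replicates 2, 3 and 4, so laminitis lay within the normal range. CYBC1, the chaperone that CYBB needs to reach the membrane, had -0.39 ± 0.74 on the log2 scale (limma adjusted p 0.879). It read 21.7 on laminitis replicate 1 and from 82.4 to 150.1 on the other 5 arrays, and without that array the difference was 0.52.

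RAC1, the ubiquitous Rac, was bright on every array. By one probe set it read 2416, 2099 and 2101 in laminitis replicates 1, 3 and 4, against 1668, 1623 and 1534 in normal replicates 2, 3 and 4. All laminitis arrays lay above the normal arrays, with a log2 difference of 0.45 ± 0.18 that did not pass (limma adjusted p 0.494) and was -0.13 with arrays scaled on added hybridisation controls. The other RAC1 probe set overlapped, at 0.17 ± 0.24, and was negative after quantile normalization (-0.16) or cyclic loess (-0.13). RAC3, the Rac found mainly in brain, had -0.35 ± 0.25 (limma adjusted p 0.680).

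ARHGDIA, an inhibitor that holds Rac in the cytosol, had 1.20 ± 0.32 by one probe set (limma adjusted p 0.352) and -0.13 ± 0.26 by the other. ELMO1, part of an exchange factor for Rac, had -0.55 ± 0.25 (limma adjusted p 0.536) and -0.15 by a further probe set.

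Kinases and lipid enzymes that activate the oxidase had 4 positive and 8 negative differences among 12 tested probe sets, with a median of -0.14. MAPK14, the p38 kinase that can phosphorylate NCF1, had -0.71 ± 0.29 (limma adjusted p 0.508). PRKCA, a protein kinase C, had -1.50 ± 0.82, with laminitis replicate 1 at 11.0 and the other arrays at 96.3 or more, and -0.46 without that array. PAK1, a kinase that Rac activates, had -0.29, 0.30 and -0.09 by its 3 probe sets.

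Of the phagocyte receptors 3 were tested and all 3 had negative differences, with a median of -0.42. CSF2RB, the shared chain of receptors for GM-CSF, interleukin 3 and interleukin 5, read 143, 158 and 168 in laminitis replicates 1, 3 and 4, against 228, 245 and 186 in normal replicates 2, 3 and 4. Its groups did not overlap, and the difference of -0.49 ± 0.20 did not pass (limma adjusted p 0.506). TLR2, a receptor for bacterial lipoproteins, had -0.42 ± 0.25, and ITGB2, the beta chain of leukocyte integrins, had -0.38 ± 0.26. Both probe sets of ITGAM, its partner chain on neutrophils and monocytes, were below the median on all arrays. The receptor probe sets too dim to test went both ways, from -0.92 by 1 of ITGAM to 0.41 for TLR4.

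The transcription factors had the highest median of the lists, 0.26 over 7 tested probe sets, with 4 positive. CEBPB, a factor induced in inflammation, read 134, 183 and 108 in laminitis replicates 1, 3 and 4, against 32.3, 64.5 and 19.4 in normal replicates 2, 3 and 4. The groups did not overlap by this probe set (2.01 ± 0.45, limma adjusted p 0.295) or by the other (1.46 ± 0.49). The first passed the brightness filter only through the 3 laminitis arrays, so its separation partly follows from the filter. CEBPA, which drives granulocyte formation, had 0.72 ± 0.25 (limma adjusted p 0.467), also without overlap. CREBBP, a coactivator, had 0.26 ± 0.29, or -0.33 with scaling on the hybridisation controls, and IRF8, which activates CYBB transcription in myeloid cells, had -0.19 and -0.23.

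Enzymes that act beside the oxidase in granules and phagosomes had 4 negative differences among 4 tested probe sets, with a median of -0.37. ELANE, neutrophil elastase, had -1.05 ± 0.34 (limma adjusted p 0.445), and MPO, myeloperoxidase, which uses the hydrogen peroxide that follows from superoxide, had -0.44 ± 0.21 (limma adjusted p 0.561). By these probe sets every laminitis array lay below every normal array. That of ELANE passed the brightness filter only through the 3 normal arrays, so its separation partly follows from the filter. The other MPO probe set was too dim to test and its groups overlapped, with a log2 difference of 0.17. NOS2, the inducible nitric oxide synthase, had -0.29 and -0.20 by its tested probe sets. The probe sets of this list too dim to test went both ways, from -0.81 for BPI to 1.06 for SLC11A1. That of SLC11A1 was higher on every laminitis array, by a narrow margin.

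**Figure D3:**
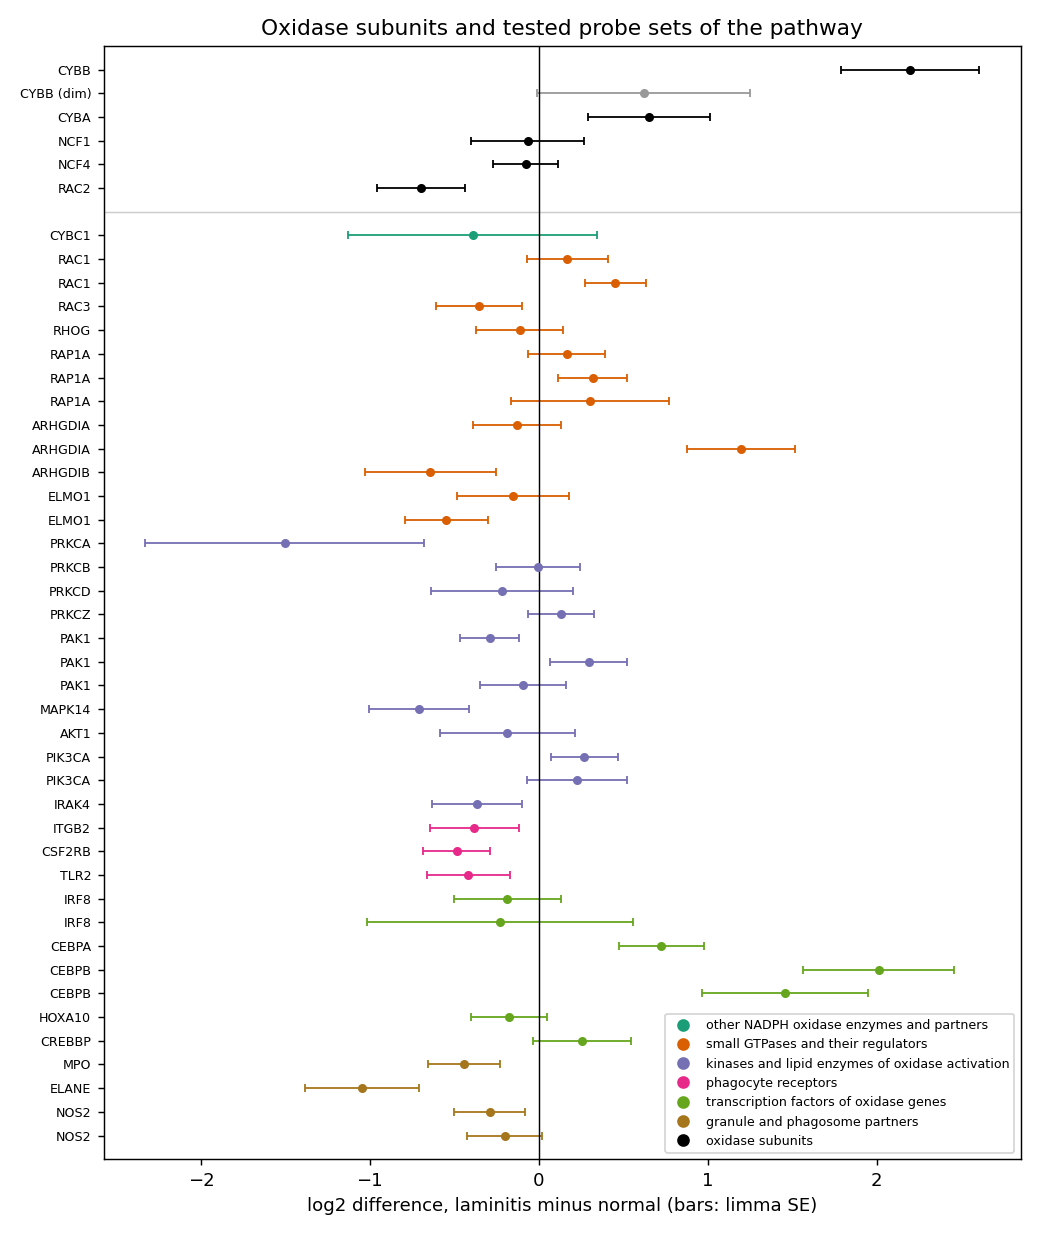
Log2 difference, laminitis minus normal, of the oxidase subunits (top, black, with the dim CYBB probe set in grey) and of the 39 tested probe sets of the pathway, coloured by list; points are limma estimates and bars are standard errors. CYBB (2.20) and the 2 CEBPB probe sets (2.01 and 1.46) lie furthest to the right. All tested probe sets of the receptor and granule lists lie left of 0, and those too dim to test are not drawn.

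The probe sets most like CYBB over the 6 arrays were found by Pearson's r of log2 intensities among 7609 tested probe sets of other named genes. They were those of ZFP36L1 (r = 0.995), RPL3 (0.989), PPME1 (0.986), RPL35 (0.985) and STRN3 (0.981), a description over 6 arrays that fall into 2 groups. ZFP36L1, which destabilises AU-rich transcripts, read 9314, 9521 and 9137 in laminitis replicates 1, 3 and 4, against 5120, 5183 and 6699 in normal replicates 2, 3 and 4. Like CYBB it was even across laminitis and had normal replicate 4 in between. The log2 differences of the 5 ran from 0.29 for RPL35 to 0.73 for ZFP36L1, well under that of CYBB. RPL35 was negative after quantile normalization (-0.13) and cyclic loess (-0.21), and RPL3 after cyclic loess (-0.032), and both, with PPME1, were negative with scaling on the hybridisation controls (-0.30, -0.15 and -0.23).

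Most like RAC2 by the same measure were QRICH1 (r = 0.998), HYOU1 (0.997), LOC407203 (0.991), EPS15L1 (0.988) and ECHDC3 (0.984). QRICH1 read 62.4, 199 and 98.6 in laminitis replicates 1, 3 and 4, against 249.7, 307 and 252 in normal replicates 2, 3 and 4. As for RAC2, laminitis replicate 1 was lowest and normal replicate 3 highest. Differences of the 5 ran from -1.33 for QRICH1 to -0.39 for ECHDC3.

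The hybridisation controls, bacterial and phage transcripts added to the sample before hybridisation, moved with the groups. They were read by 2 sets of 9 probe sets. All 9 of the first set were higher on every laminitis array than on every normal array, by 0.34 to 0.87 on the log2 scale with a median of 0.52. The second set, for the same transcripts, had differences of 0.35 to 0.72, and 8 of its 9 were higher without overlap, while 1 probe set of bioB overlapped, at 541 on laminitis replicate 1 and 562 on normal replicate 4. The mean of the first set, centred over the arrays, was 0.30, 0.25 and 0.33 on laminitis replicates 1, 3 and 4, against -0.42, -0.56 and 0.10 on normal replicates 2, 3 and 4. CYBB, centred in the same way, was 0.99, 1.18 and 1.13 on laminitis replicates 1, 3 and 4, against -1.65, -1.52 and -0.13 on normal replicates 2, 3 and 4. Normal replicate 4 stood between the groups in both. The part of the controls in the CYBB difference was not tested.

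When the arrays were scaled on the first set of these controls, a step added once the data had been seen, every log2 difference moved down by 0.59. CYBB was then 1.61 ± 0.35 and RAC2 -1.29 ± 0.37, each still without overlap of the groups, and CYBA was 0.07. Relative to all probe sets the members kept their places, since a common factor cancels between them.

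**Figure D4:**
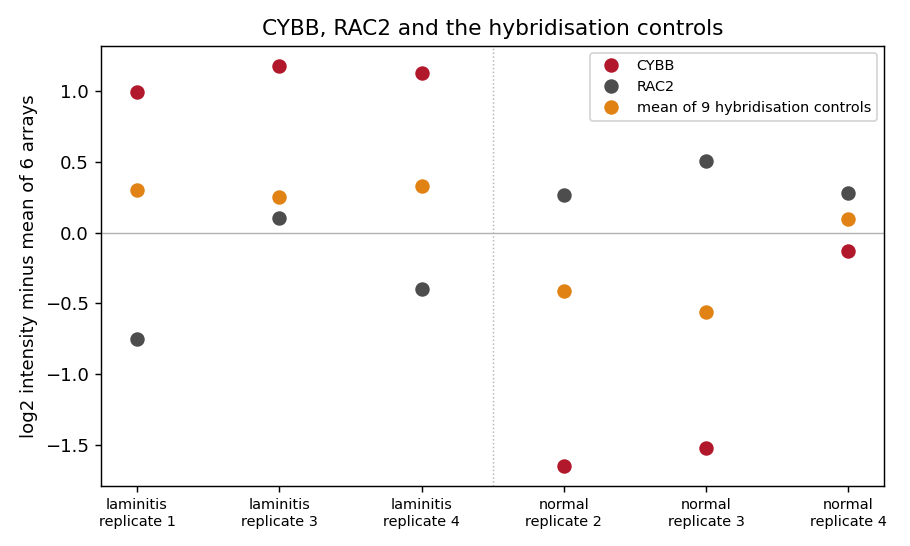
Log2 intensity minus the mean over the 6 arrays for CYBB (brighter probe set), RAC2 and the mean of the 9 hybridisation controls of the first set, by array, with laminitis left of the dotted line and normal tissue right of it. The controls run from 0.25 to 0.33 in laminitis and from -0.56 to 0.10 in normal tissue, with normal replicate 4 highest among normal arrays for the controls and for CYBB.

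Markers of leukocytes were mixed, with positive differences for calprotectin and negative ones for most tested macrophage and T cell markers. In bulk tissue fewer cells of a type and less RNA per cell cannot be told apart. Of 14 monocyte and macrophage markers 10 had probe sets, 13 in all, of which 4 were tested, 1 of them with a positive difference and a median of -0.21. The summed intensity of all 13 ran from 943 to 1189 in laminitis and from 1196 to 1488 in normal tissue. Most of the summed probe sets were too dim to test, and the groups overlapped for all 4 tested ones. The sum therefore does not stand for the single markers. MSR1, a scavenger receptor, had 0.59 ± 0.27 (limma adjusted p 0.535), C1QB, a complement subunit that macrophages make, had -0.28 ± 0.26, and CD14 and CD68 had -0.16 and -0.26.

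Neutrophil markers split. Of 14 listed, 9 had probe sets, 12 in all, of which 4 were tested. The summed intensity of the 12 ran from 1792 to 13623 in laminitis and from 784 to 1216 in normal tissue. S100A8 and S100A9 made up most of that sum on each laminitis array, so it does not stand for the other markers of the list. S100A8, a chain of the antimicrobial calprotectin, read 9810, 7256 and 779 in laminitis replicates 1, 3 and 4, against 429, 133 and 110.2 in normal replicates 2, 3 and 4. Laminitis replicate 4 was thus far below the other laminitis arrays for S100A8, and for the tested probe set of S100A9, at 486 against 2947 and 2392. The other S100A9 probe set, too dim to test, had overlapping groups. It read 176, 297 and 13.0 in laminitis replicates 1, 3 and 4, against 13.3, 8.47 and 17.3 in normal replicates 2, 3 and 4. CYBB read 256 on laminitis replicate 4, against 233 and 265. This contrast rests on 1 array, and its cause was not tested. MPO and ELANE, granule enzymes on the same list, had negative differences by their tested probe sets, as given above. Which cells gave the signal of S100A8 and S100A9, or of MPO and ELANE, was not tested.

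The 10 markers shared by leukocytes had 12 probe sets, of which 7 were tested, 2 with positive and 5 with negative differences (median -0.24). They summed to 1125 to 1719 in laminitis and 1499 to 1585 in normal tissue. PTPRC, the CD45 antigen of all white cells, was too dim to test by its 3 probe sets. CD48 had -1.11 ± 0.66 and ARHGDIB, an inhibitor in blood cells that binds RAC2, had -0.64 ± 0.39 (limma adjusted p 0.621 and 0.628). The 2 positive ones were FCER1G (0.17 ± 0.20) and TYROBP (0.11 ± 0.33), with overlapping groups. CORO1A, too dim to test, lay higher on every laminitis array. It read 151.5, 48.9 and 19.7 in laminitis replicates 1, 3 and 4, against 14.9, 14.4 and 17.4 in normal replicates 2, 3 and 4. T cells also express RAC2, and their markers had 2 positive and 9 negative differences among 11 tested probe sets (median -0.16) and summed to 1712 to 1954 in laminitis and 2027 to 2251 in normal tissue. CD2, by its 1 tested probe set, and CD247, surface and signalling chains of T cells, had -0.98 ± 0.38 and -0.81 ± 0.32 and lay lower on every laminitis array (limma adjusted p 0.494 for both). The other T cell markers did not share this: CD4, the coreceptor of helper T cells, lay higher on every laminitis array by one probe set (0.30 ± 0.20, limma adjusted p 0.648) and overlapped by the other (-0.67 ± 0.31). CD3D (-0.10 and 0.03), CD3E (-0.02), CD3G (-0.16), CD8A (-0.25) and LCK (-0.02 and -0.35), receptor chains, a coreceptor and a kinase of T cells, had overlapping groups. The part of these cells in the CYBB or RAC2 differences was not tested.

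The remaining lists bear on the tissue. B cell markers had 1 tested probe set, of MS4A1 (-0.43), dendritic cell markers had 1, of CD83 (-1.04), and the 7 probe sets of red blood cell markers had 0, with sums of 173 to 209 in laminitis and 127 to 162 in normal tissue. Mast cell markers had a median of 0.01, endothelial markers -0.05, smooth muscle markers -0.83, fibroblast markers -0.06 and keratinocyte markers 0.11. KRT5 and KRT14, the basal keratins, and COL1A2 and COL3A1, dermal collagens, were above the array median on all 6 arrays by at least 1 probe set.

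**Figure D5:**
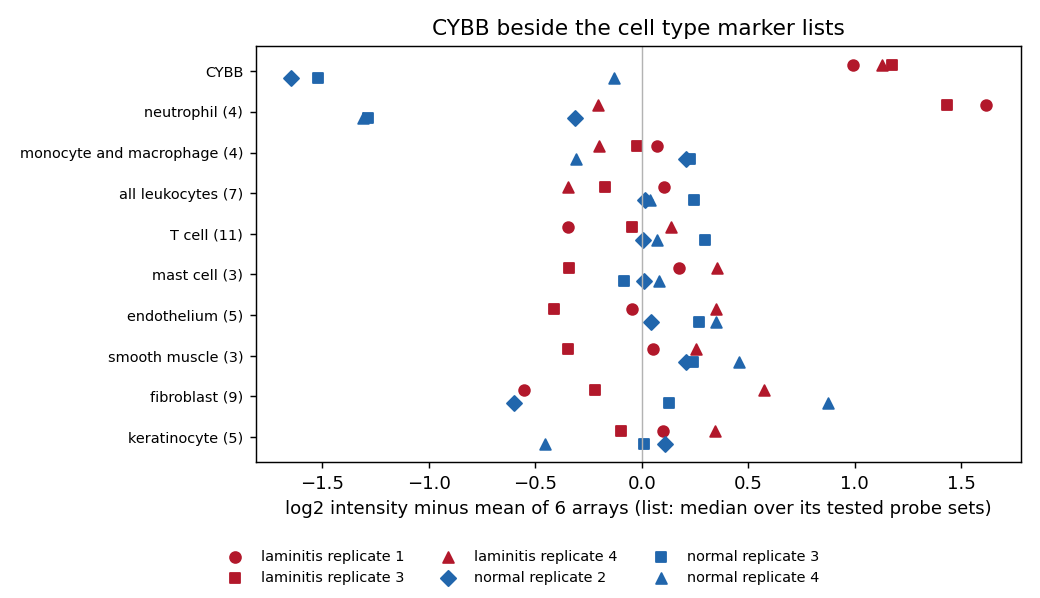
Log2 intensity minus the mean over the 6 arrays for CYBB and, as the median over its tested probe sets (their number in brackets), for each marker list with at least 3 of them; laminitis is drawn above normal tissue in each row, and shapes mark replicate numbers. Laminitis replicate 4 lies with the other laminitis arrays for CYBB (1.13), and at -0.20 for the neutrophil list, where laminitis replicates 1 and 3 lie at 1.62 and 1.43.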

How the data were processed

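Affymetrix bovine GeneChip data of 3 laminitis and 3 normal samples were grouped by the sample titles. The deposited values are linear intensities, scaled by the authors so that the mean after trimming 2% at each end is 150.02 or 150.03 on every array, with medians between 86.7 and 96.6. GCRMA is named, without a version, in the submitters' processing notes, but that method yields log2 values, so the step that made the deposited intensities is not settled. Of the probe sets, 112 controls were left out, 13292 others had 1 symbol, 86 several and 10638 none, in a bovine annotation that can be old; all 5 member symbols are horse symbols too. No 2 arrays held identical values.

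After log2 transformation without an offset, probe sets above their array's median on at least 3 of 6 arrays were tested two-sided with limma 3.58.1 (lmFit, eBayes; R 4.3.3), adjusting p by Benjamini-Hochberg over 12519 probe sets at a threshold of 0.05; the prior had 3.02 degrees of freedom. Every probe set was kept apart. Figures were drawn with matplotlib 3.10.9. The fit was tested on simulated data. Members and gene lists were chosen with earlier results of these data known. The text names all members, the 3 genes of smallest p of each pathway list, RAC1 and RAC3. It also names the 5 probe sets most like CYBB and RAC2, and the 2 genes of smallest p of the neutrophil, macrophage, leukocyte and T cell lists. NOX4, IRF8, ITGAM, TLR4, SLC11A1, BPI, PTPRC, CORO1A, FCER1G, TYROBP, CD14 and CD68 were named after their values were seen. So were CD4, CD3D, CD3E, CD3G, CD8A, LCK and the tissue markers. Alternatives were other filters, offsets, scalings and variance models, array weights, a replicate block and leaving out each array. Some genes and list summaries of the pathway are not reported here.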

Additional observations from a re-analysis of the deposited data

How the results depend on the processing

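The 18 alternatives, or 17 for CYBB, NCF1 and RAC2, which the filter on all 6 arrays leaves out, kept the brighter CYBB probe set positive, from 1.37 with 64 added to 2.68 without normal replicate 4, and RAC2 negative, from -1.29 with scaling on the hybridisation controls to -0.47 with 64 added. CYBA stayed positive in all of them, from 0.07 with scaling on the controls to 1.02 without laminitis replicate 4, and the dim CYBB probe set also stayed positive, from 0.03 to 1.36, while NCF1 changed sign in 6 and NCF4 in 3. The median of the 5 tested members, -0.06, was -0.65 with scaling on the controls, which by construction lowers every difference by 0.59, and ran from -0.14 to 0.27 with 1 array left out. Over all tested probe sets, limma called 6 higher with the filter on all 6 arrays, 4 higher with an intensity trend and robust variance, and 3 lower with scaling on the controls, against 0 and 0 as reported; with 1 array left out the number called higher ran from 0 to 2, the 2 without laminitis replicate 4. No pathway probe set passed in any of the 18 alternatives. The replicate number as a block left the counts of calls at 0 and the member median at 0.00. The numbers 3 and 4 are shared by the groups, and the labels do not say whether they pair samples. Deviations of same-numbered arrays correlated at -0.02 and -0.03, and those of differently numbered arrays at -0.04 to 0.06. With so few arrays these values cannot decide whether the samples were paired. Among 36 named probe sets with a test, 621 of 634 alternative values kept their direction and side of the threshold and 13 were reversed. CYBC1 was 0.79 under the block and ran from -0.87 to 0.52 with 1 array left out. RAC1 was -0.16 after quantile normalization and -0.13 after cyclic loess, RPL35 was -0.13 and -0.21, and RPL3 was -0.032 after cyclic loess. Scaling on the controls gave -0.42 and -0.13 for RAC1, -0.33 for CREBBP, -0.15 for RPL3, -0.23 for PPME1 and -0.30 for RPL35, by the shift it applies to every probe set; for the other reversals the cause was not tested. Signal over background could not be judged, since detection calls were not used here.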
